A study of Mus musculus with 48 samples.

Results

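Potassium channel subunit genes were taken as every gene whose symbol in the array annotation starts with Kcn. This gave 88 of 22451 named genes, carried by 159 of 46174 probes, and each gene was read from its brightest probe, by the average of all 48 arrays. By symbol prefix, 36 of the 88 genes encode voltage-gated alpha subunits, 13 auxiliary subunits of voltage-gated channels, 14 inward rectifiers, 13 two-pore-domain channels and 11 channels activated by calcium or sodium with their accessory subunits, and the last, Kcnmb4os1, is a noncoding antisense transcript.

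Primary cultures of neurons and astrocytes from the striatum of C57Bl/6J mice were compared. In each cell type 1 group received the ethanol vehicle, 1 received dexamethasone at 100 nM, and 4 received aldosterone, progesterone, 5α-dihydrotestosterone or β-estradiol at 200 nM, all for 4 h, which made 12 groups with 4 biological replicates each. Neurons came from embryos near the end of gestation, whereas astrocytes came from pups in the first postnatal week, were selected with beads against the astrocyte surface protein GLAST and were grown in serum, so that cell type, age and culture conditions cannot be told apart. Both were kept in Neurobasal medium without supplements on the final day, and the replicates were described as biological. In such bulk samples fewer cells of a type and less RNA per cell cannot be told apart either.

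Potassium channels set the resting membrane potential and the shape and rate of action potentials. Voltage-gated channels open on depolarization, inward rectifiers pass potassium more readily into the cell than out of it, and two-pore-domain channels carry leak currents. Astrocytes are known for a very negative resting potential, carried largely by the inward rectifier Kir4.1 (Kcnj10) and by two-pore-domain channels, and for the uptake of potassium that active neurons release.

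The arrays of the vehicle and the dexamethasone group numbered 3 in neurons were left out of every comparison unless stated otherwise. For Fkbp5, a co-chaperone gene that glucocorticoids induce, neuron vehicle array 3 read 10.64 on the log2 scale against 9.78, 9.81 and 9.80 on the other vehicle arrays, and neuron dexamethasone array 3 read 9.85 against 10.85, 10.69 and 10.50. By Fkbp5 both arrays thus went against their labels. For Tsc22d3 neuron vehicle array 3 read 12.84 against 11.77, 11.56 and 12.03 on the other vehicle arrays. Neuron dexamethasone array 3 read 12.31, above those 3 but below the other dexamethasone arrays (12.43, 12.83 and 12.60). By this gene only the vehicle array went clearly against its label. With both left out, 46 arrays remained. Pairs of arrays of 1 group correlated at 0.990 to 0.996 over all probes. The cultures also held markers of other cells. In vehicle astrocytes the mean of the 8 astrocyte markers lay between 13.63 and 13.71 (11.56 to 11.64 in vehicle neurons), that of the 9 neuronal markers between 8.61 and 8.73 (10.99 to 11.22 in neurons), that of the 8 microglial markers between 11.66 and 11.73 (8.63 to 8.72 in neurons), that of the 3 ependymal markers between 11.76 and 12.22 (7.37 to 7.55) and that of 7 of the 8 oligodendrocyte-lineage markers between 8.79 and 9.20 (10.60 to 10.68). The mean of the 5 mural cell markers lay between 9.11 and 9.21 in astrocytes and between 7.80 and 7.85 in neurons. These markers did not differ together. Acta2 differed most (16.28 in vehicle astrocytes, 9.55 in vehicle neurons), and Pdgfrb was also higher in astrocytes (8.65 and 7.67). Des was nearly level (7.34 and 7.33), while Vtn (6.79 and 7.55) and, by less, Rgs5 were lower in astrocytes. Among the defining markers, the neuronal Snap25, Nefl and Gad2 and the microglial Ptprc were in the range of the dim probes in both cultures.

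To describe which channels gave a signal above the bulk of dim probes, the mean of each gene over the vehicle arrays was set against a log2 level of 8. In astrocytes 15 of the 88 genes (17.05%) were above it, and in neurons 28 (31.82%), whereas 42.36% and 42.19% of all named genes were. Of these, 12 genes were above 8 in both cell types, 3 in astrocytes alone, 16 in neurons alone and 57 in neither, and 43 genes were under 7.5 in both. Over the 48 arrays, 61.07% of all probes, with or without a gene name, had a mean under 7.5. That share counts every probe and not the brightest of each gene, so it is no background for the 43 genes. The signal is set by the probe as well as by the transcript, so that an order of probe signals is not an order of transcript levels. No detection calls were used, and a difference against a group in the range of the dim probes may understate the difference in transcript, so no fold is given there.

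The families split differently between the cultures. Of the 36 voltage-gated alpha subunits 3 were above 8 in astrocytes and 12 in neurons, of the 13 auxiliary subunits 4 and 6, of the 11 calcium- or sodium-activated genes 1 and 5, of the 13 two-pore-domain genes 5 and 4, and of the 14 inward rectifiers 2 and 1, with no inward rectifier above 8 in both. The 3 genes above 8 in astrocytes alone were Kcnk6, Kcnj10 and Kcnj16. Closest to the limit in astrocytes were Kcnh2 (8.12) and Kcnj10 (8.15) inside and Kcnd2 (7.89) and Kcnk5 (7.88) outside, and in neurons Kcnip2 (8.12) and Kcnk10 (8.24) inside and Kcnk3 (7.90) and Kcns1 (7.84) outside.

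**Figure D1:**
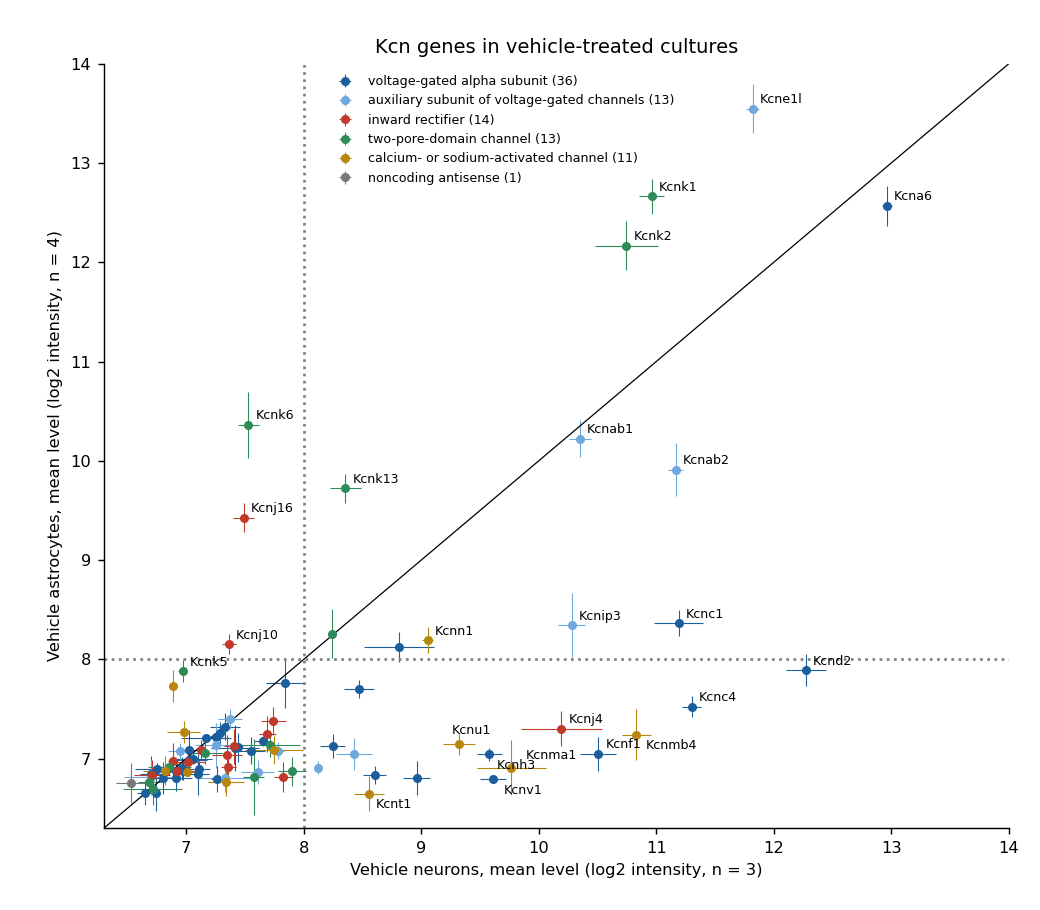
Mean level of each of the 88 Kcn genes in vehicle neurons (horizontal axis, log2 intensity, n = 3) against vehicle astrocytes (vertical axis, log2 intensity, n = 4), coloured by family, with bars of 1 SD, dotted lines at a level of 8 and a diagonal of equal level. Most of the genes lie in the lower left corner, 16 lie to the right of the vertical line and at or below the horizontal one, and Kcnk6, Kcnj16 and Kcnj10 lie in the upper left.

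The 8 genes with the highest probe signal in vehicle astrocytes were Kcne1l, Kcnk1, Kcna6, Kcnk2, Kcnk6, Kcnab1, Kcnab2 and Kcnk13, from 13.55 ± 0.25 to 9.72 ± 0.15 (SD, n = 4). In vehicle neurons they were Kcna6, Kcnd2, Kcne1l, Kcnc4, Kcnc1, Kcnab2, Kcnk1 and Kcnmb4, from 12.96 ± 0.05 to 10.83 ± 0.13 (SD, n = 3). Kcne1l, Kcna6, Kcnab2 and Kcnk1 were on both lists.

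The comparison of vehicle astrocytes with vehicle neurons asked which channels mark each culture. With limma and Benjamini-Hochberg adjustment over all 46174 probes, 44 of the 88 genes passed FDR 0.01 (50%, against 41% of all named genes). Of these, 9 were higher in astrocytes (10.2%, against 21.7% of all named genes) and 35 were lower (39.8%, against 19.3%). The median difference over the 88 genes was -0.14 on the log2 scale, and it was 0.01 over all named genes. The arrays of the cell types did not overlap for 50 of the 88 genes, 9 higher and 41 lower in astrocytes, and for 47.5% of all named genes. Of the voltage-gated alpha subunits 14 of 36 were lower in astrocytes and none was higher. For auxiliary subunits the counts were 7 lower and 1 higher of 13, for calcium- or sodium-activated channels 7 and 1 of 11, for inward rectifiers 4 and 2 of 14, and for two-pore-domain channels 3 lower and 5 higher of 13.

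**Figure D2:**
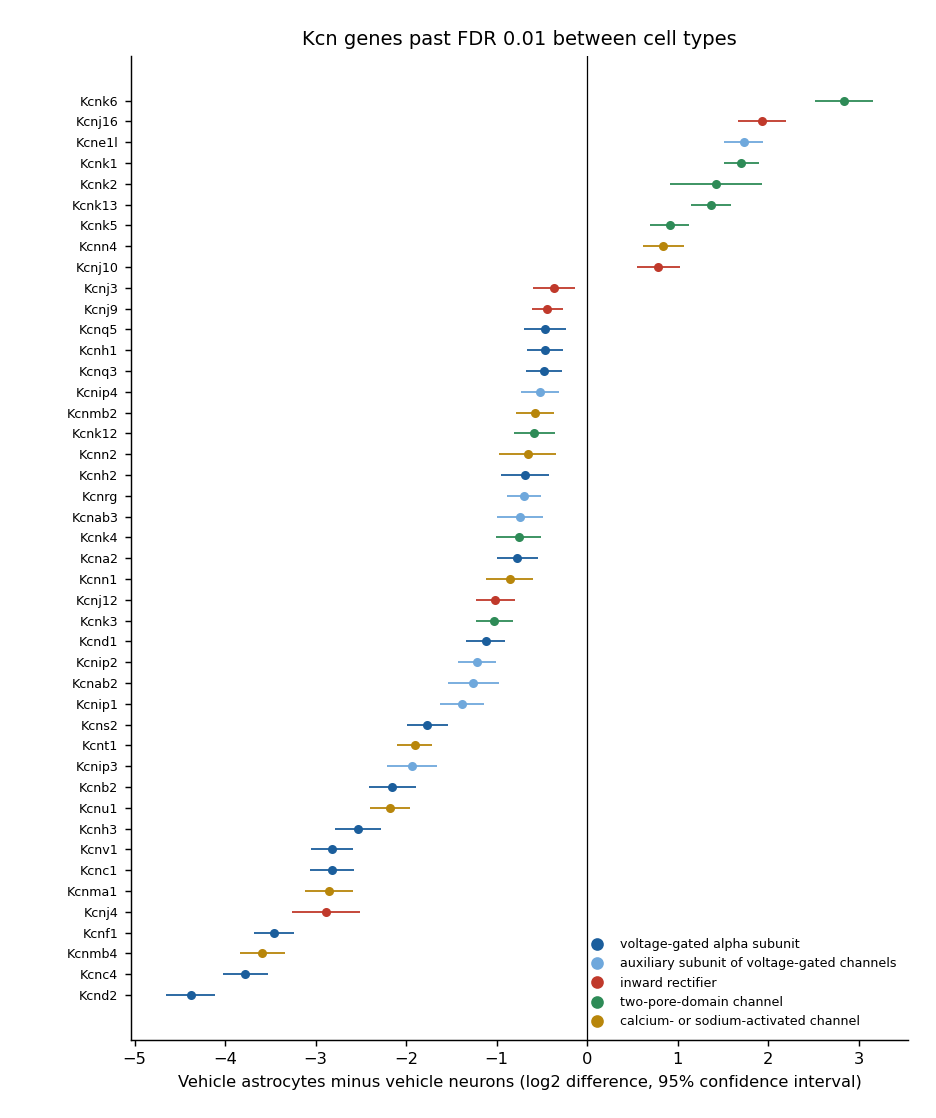
Difference of vehicle astrocytes minus vehicle neurons (log2, with the 95% confidence interval of limma) for the 44 Kcn genes past FDR 0.01, ordered by size and coloured by family. The differences run from -4.38 for Kcnd2 to 2.84 for Kcnk6, all voltage-gated alpha subunits lie to the left of 0, and 5 of the 9 genes to the right are two-pore-domain channels.

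Among the genes lower in astrocytes, Kcnd2 (Kv4.2), the pore-forming subunit of a somatodendritic A-type current, differed most. Its level was 8.12, 7.87, 7.83 and 7.74 on the astrocyte arrays and 12.47, 12.18 and 12.17 on the neuron arrays. Every neuron array was far above every astrocyte array, and the difference was -4.38 ± 0.13 (SE, adjusted p = 1.75e-31).

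Of the Kv3 subunits, which repolarize fast-spiking neurons, Kcnc4 and Kcnc1 were lower in astrocytes, and Kcnc2 did not pass (-0.04 ± 0.09, adjusted p = 0.819). Kcnc4 read 7.61, 7.56, 7.37 and 7.55 in astrocytes and 11.38, 11.30 and 11.22 in neurons, a difference of -3.78 ± 0.12 (adjusted p = 2.59e-30). Kcnc1 read 8.21 to 8.52 in astrocytes and 10.95 to 11.34 in neurons, with a difference of -2.83 ± 0.12. The groups did not overlap for either gene. Kcnf1 and Kcnv1, which encode subunits that are electrically silent alone and modify other Kv channels, differed by -3.46 ± 0.11 and -2.82 ± 0.11. Kcnh3, of the ether-à-go-go-like channels of forebrain neurons, differed by -2.54 ± 0.13.

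The pore of the large-conductance calcium-activated channel, Kcnma1, and its neuronal accessory subunit Kcnmb4 were both lower in astrocytes. Kcnma1 read 6.59, 7.17, 7.11 and 6.77 in astrocytes and 9.52, 9.69 and 10.09 in neurons, a difference of -2.86 ± 0.13. Kcnmb4 read 7.61, 7.05, 7.09 and 7.21 in astrocytes and 10.70, 10.84 and 10.95 in neurons, a difference of -3.59 ± 0.13. All astrocyte arrays of both genes were under 8, in the range of the dim probes. Kcnmb4os1, the antisense transcript named after Kcnmb4, did not pass (0.23 ± 0.11, adjusted p = 0.102). Kcnu1, of the same channel family and known mainly from sperm, was also lower, by -2.18 ± 0.11.

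Kcnj4 (Kir2.3), an inward rectifier of forebrain neurons, read 7.32, 7.12, 7.53 and 7.24 in astrocytes and 9.97, 10.02 and 10.59 in neurons, a difference of -2.89 ± 0.19 (adjusted p = 1.26e-18). Kcnj2 (Kir2.1), of the same subfamily, read 6.96 to 7.35 in astrocytes and 7.33 to 7.49 in neurons. Its arrays overlapped and it did not pass (-0.28 ± 0.11, adjusted p = 0.0463). Kcnip2, a calcium-binding partner of Kv4 channels, differed by -1.22 ± 0.10, and Kcnq3, a subunit of the M-current, by -0.47 ± 0.10 at levels of 7.14 to 7.25 in astrocytes and 7.58 to 7.72 in neurons.

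Other genes also passed in this direction. Kcnb2, a delayed rectifier subunit, read 6.55 to 6.93 in astrocytes and 8.87 to 9.09 in neurons (-2.15 ± 0.13). Kcnip3, a Kv4 partner that is also known as the repressor DREAM, read 8.08 to 8.81 in astrocytes and 10.17 to 10.40 in neurons (-1.94 ± 0.14), and its relative Kcnip1 differed by -1.38 ± 0.12. Kcnip4 of the same family differed by -0.52 ± 0.10. Of the paralogs of Kcnd2, Kcnd1 passed (-1.12 ± 0.11) and Kcnd3 did not (-0.31 ± 0.11, adjusted p = 0.0188). Among small-conductance calcium-activated channels Kcnn1 read 8.05 to 8.36 in astrocytes and 9.02 to 9.11 in neurons (-0.86 ± 0.13), and Kcnn2 differed by -0.66 ± 0.16. Kcnh2, the ERG channel, differed by -0.69 ± 0.13. Of the two-pore-domain family, Kcnk3 (TASK-1), Kcnk4 (TRAAK) and Kcnk12 were lower in astrocytes, by -1.03 ± 0.10, -0.76 ± 0.12 and -0.58 ± 0.11, with all means under 8.

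Kcnk6 (TWIK-2), a two-pore-domain channel, led the genes higher in astrocytes. It read 10.59, 10.70, 10.12 and 10.04 on the astrocyte arrays and 7.63, 7.47 and 7.48 on the neuron arrays. The neuron arrays were at the level of dim probes and far below all astrocyte arrays, and the difference was 2.84 ± 0.16 (adjusted p = 5.33e-21). Kcnk1 (TWIK-1), which contributes to the leak conductance of astrocytes, read 12.89, 12.69, 12.58 and 12.49 in astrocytes and 11.07, 10.95 and 10.86 in neurons, a difference of 1.70 ± 0.10. Kcnk2 (TREK-1), a channel opened by stretch and lipids, read 11.91, 12.03, 12.28 and 12.45 in astrocytes and 10.50, 10.70 and 11.03 in neurons, a difference of 1.42 ± 0.25. The groups did not overlap for these genes. Of the 3, Kcnk2 had the most spread arrays in neurons and Kcnk6 in astrocytes.

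Kcnj16 (Kir5.1), which pairs with Kir4.1 in glia, read 9.36, 9.39, 9.31 and 9.64 in astrocytes and 7.46, 7.42 and 7.59 in neurons, a difference of 1.94 ± 0.13. Kcnj10 (Kir4.1) itself read 8.10, 8.27, 8.19 and 8.04 in astrocytes and 7.31, 7.43 and 7.35 in neurons, a difference of 0.79 ± 0.12 (adjusted p = 2.05e-07). The astrocyte arrays were above the neuron arrays for both genes, but the level of Kcnj10 in astrocytes was close to the limit of 8. Kcne1l, of the Kcne accessory subunits, was higher in astrocytes by 1.73 ± 0.11.

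Kcnk13 (THIK-1) and Kcnn4, an intermediate-conductance calcium-activated channel, are known in the brain mainly from microglia. Kcnk13 read 9.54 to 9.88 in astrocyte cultures and 8.22 to 8.48 in neurons (1.37 ± 0.11), and Kcnn4 read 7.56 to 7.94 and 6.86 to 6.92 (0.84 ± 0.11). Both were higher in the cultures in which the microglial markers were higher (11.66 to 11.73 against 8.63 to 8.72). The part of these cells in the result was not tested. Kcna3 (Kv1.3), another channel of microglia, read 6.90 to 7.21 in astrocyte cultures and 7.40 to 7.47 in neurons, and did not pass (-0.32 ± 0.12, adjusted p = 0.0305). Kcnk5 (TASK-2), an alkaline-activated channel of epithelia, was higher in astrocytes by 0.91 ± 0.11 at levels of 7.72 to 7.97.

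Some genes with bright probes differed little. Kcna6 (Kv1.6) read 12.73, 12.75, 12.39 and 12.40 in astrocytes and 12.99, 12.99 and 12.91 in neurons. The arrays did not overlap, although the neuron array left out read 12.65, and the difference of -0.40 ± 0.14 did not pass FDR 0.01 (adjusted p = 0.0192), with a 95% confidence interval of -0.68 to -0.12. A limma fit with the replicate number within each cell type as a block gave an adjusted p of 0.00285. Each block held 1 cell type, so that fit left the spread between blocks out of the error. Its p therefore cannot decide a comparison between cell types. Kcnab1, a cytoplasmic beta subunit of Kv1 channels, read 10.04 to 10.48 in astrocytes and 10.28 to 10.46 in neurons, and its difference of -0.13 ± 0.15 had an interval of -0.42 to 0.16. Kcnab2, its paralog, was lower in astrocytes by -1.26 ± 0.14.

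For 20 genes 1 probe passed and another did not in this comparison. In 17 of them the brighter probe passed and the other, with a mean between 6.62 and 7.28, did not. These were Kcnc1, Kcnd1, Kcnf1, Kcnh1, Kcnh2, Kcnip2, Kcnip4, Kcnj9, Kcnk2, Kcnk4, Kcnk5, Kcnk6, Kcnmb2, Kcnn2, Kcnq5, Kcns2 and Kcnv1. In the other 3, Kcna6, Kcne1 and Kcng2, only a dimmer probe passed (-0.41, 0.56 and -0.75). No gene had called probes of opposite direction. Matched by value, each of 8 array chips held 1 cell type, so that cell type and chip cannot be told apart. The call of Kcnj3, the weakest of the 44 (-0.37 ± 0.11, adjusted p = 0.00798), was lost without any of vehicle astrocyte arrays 2, 3 and 4 or vehicle neuron arrays 1 and 2 (adjusted p up to 0.0586), and that of Kcnn2 without vehicle neuron array 4 (adjusted p = 0.0155).

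Dexamethasone changed 6 of the 88 genes in astrocytes at FDR 0.01 (limma, Benjamini-Hochberg), which is 6.82% where 4.94% of all named genes changed. Kcnk6, Kcnt1 and Kcnk1 were higher (3.41%, against 2.56% of all named genes), and Kcna6, Kcnk5 and Kcna2 were lower (3.41%, against 2.39%). The shares of the family were thus near those of all genes. Of the 15 genes above a level of 8 in vehicle astrocytes 3 passed. The share of all named genes above 8 that passed was not computed, so this count has no background. The changes of the other 12 ran from -0.35 for Kcnk10 to 0.15 for Kcnj10. The median change over the 88 genes was 0.01, and it was -0.01 over all named genes.

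Kcnk6 rose most. It read 10.59, 10.70, 10.12 and 10.04 with vehicle and 11.85, 11.99, 11.43 and 11.68 with dexamethasone. All 4 treated arrays were above all vehicle arrays, a separation in either direction that 9.52% of all named genes showed, and the rise was 1.38 ± 0.15 (SE, adjusted p = 5.47e-10), or 2.59-fold. A second probe of the gene rose by 1.18 (adjusted p = 5.57e-12), while 2 dim probes with means of 6.80 and 6.79 did not pass.

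Kcnk1, a close relative of Kcnk6, read 12.89, 12.69, 12.58 and 12.49 with vehicle and 13.59, 13.35, 13.13 and 13.26 with dexamethasone. The arrays did not overlap, and the rise was 0.67 ± 0.09 (adjusted p = 2.28e-07), or 1.59-fold. Its second probe rose by 0.86 (adjusted p = 5.81e-11).

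Kcnt1 (Slack) encodes a sodium-activated channel of neurons. In astrocytes it read 6.71, 6.50, 6.87 and 6.51 with vehicle and 7.46, 7.62, 7.87 and 7.52 with dexamethasone. The vehicle arrays were among the dim probes, no treated array overlapped them, and the rise was 0.97 ± 0.09 (adjusted p = 8.04e-12). Even with dexamethasone the level stayed below that of vehicle neurons (8.44, 8.69 and 8.53). The dimmer second probe rose by 0.57 (adjusted p = 4.30e-04).

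Kcna6, a delayed rectifier subunit, fell most. It read 12.73, 12.75, 12.39 and 12.40 with vehicle and 11.71, 11.62, 11.55 and 11.56 with dexamethasone. The treated arrays were all below the vehicle arrays and closer to one another, and the change was -0.96 ± 0.13 (adjusted p = 2.26e-07), or 1.94-fold lower. Among its other probes, those with means of 11.76 and 7.74 fell by 1.08 and 0.57 (adjusted p = 6.14e-12 and 0.00195), and the dimmest did not pass (-0.24, adjusted p = 0.151).

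Kcnk5 read 7.97, 7.93, 7.72 and 7.90 with vehicle and 7.37, 7.32, 7.36 and 7.30 with dexamethasone, a change of -0.54 ± 0.10 (adjusted p = 1.04e-04). Kcna2 (Kv1.2), known from axons, read 7.65, 7.83, 7.62 and 7.71 with vehicle and 7.27, 7.44, 7.23 and 7.01 with dexamethasone, a change of -0.47 ± 0.10 (adjusted p = 0.00215). The arrays did not overlap for either gene, and both lay under the level of 8 in all of them. The other probes of Kcnk5 did not pass (-0.28 and -0.29), and the call of Kcna2 was lost without vehicle array 2 (adjusted p = 0.0157) or dexamethasone array 4 (adjusted p = 0.0247). Kcnk10 (TREK-2), a relative of Kcnk2, passed only when the fit held the replicate number as a block term (-0.35 ± 0.09, adjusted p = 0.00834; 0.0322 without it).

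**Figure D3:**
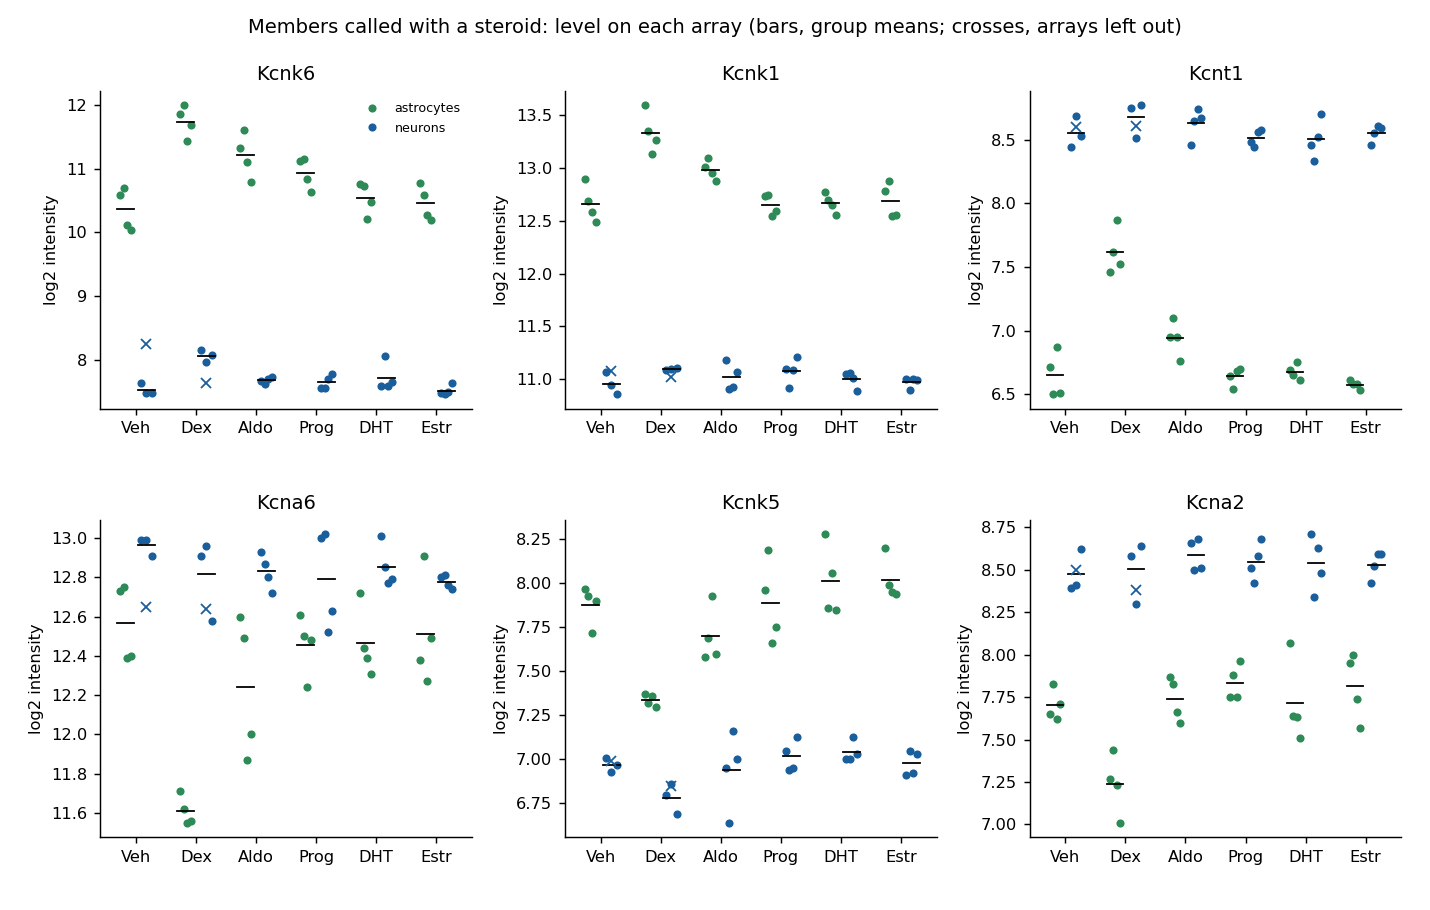
Level on each array (vertical axes, log2 intensity, a scale of its own for each panel) of the 6 Kcn genes that passed with a steroid, by treatment (Veh, vehicle; Dex, dexamethasone; Aldo, aldosterone; Prog, progesterone; DHT, dihydrotestosterone; Estr, estradiol), in astrocytes (green) and neurons (blue), with group means as bars and the 2 neuron arrays left out as crosses. In astrocytes the dexamethasone arrays stand apart from the vehicle arrays in all 6 panels, and Kcnk6 read 11.43 to 11.99 with dexamethasone, 10.79 to 11.61 with aldosterone, 10.63 to 11.15 with progesterone and 10.04 to 10.70 with vehicle, with overlap between neighbours in this order.

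Other cell markers moved with dexamethasone in the astrocyte cultures. The mean of the 8 microglial markers was 11.66 to 11.73 with vehicle and 11.49 to 11.59 with dexamethasone, while that of the 8 astrocyte markers was 13.63 to 13.71 and 13.58 to 13.59. The microglial markers did not move together. Cx3cr1 (13.65 with vehicle, 12.60 with dexamethasone) and Aif1 (13.33 and 12.98) fell most, while C1qa rose (13.08 and 13.46). Trem2 (13.77 and 13.76), Tyrobp (12.92 and 12.93) and Csf1r (12.25 and 12.21) were nearly level. Of the striatal neuron markers Ppp1r1b, which encodes a phosphatase inhibitor, was higher (9.82 with vehicle, 12.08 with dexamethasone), while the means of the other 5 measured differed by at most 0.30 (Drd2, 7.26 and 6.96). Their part in the changes of the channel genes was not tested. By the methods' t-test, which takes the spread of each probe from the compared arrays alone, none of the 88 genes passed FDR 0.01. Its adjusted p was 0.0381 for Kcnk6, 0.0247 for Kcnt1, 0.0876 for Kcnk1, 0.0138 for Kcna6, 0.0122 for Kcnk5 and 0.116 for Kcna2. The share of all named genes that passed under this method was not computed. The count of channel genes under it thus has no background.

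Of the 88 genes 66 had an entry in the RefSeq promoter table (GRCm38.p6), among them Kcnk1, Kcna6, Kcnk5 and Kcna2 of the genes that dexamethasone changed. An entry can belong to a start inside the annotated gene. The 250 bases before the listed start lay wholly within the gene for Kcnk1 and Kcna2, overlapped it by 160 bases for Kcna6 and lay wholly upstream for Kcnk5. Steroid receptors of the glucocorticoid receptor group bind as dimers to a palindrome. The palindrome, searched as GNACA and TGTNC with 3 bases between them, was found in 0.387% of the windows of all 32851 entries and in 1 of the 66 channel genes, Kcna5, and the single site AGAACA or its reverse complement TGTTCT in 16.1% of all entries and in 11 of the 66 genes (16.7%). None of the 4 windows of the changed genes held either. The palindrome is its own reverse complement, so both strands were read, and it can overlap a single site. The 66 genes had 91 entries, so a share by gene is not a like measure to the share of all entries. A match is a description only, and the windows say nothing of sites elsewhere. The window of Kcnk5 is shown, as the one that lies wholly upstream, 5′ to 3′ on the strand of the gene, with each of its 19 CG dinucleotides in capitals (the median over all entries was 6).
Kcnk5 (chr14:20181783-20182032, minus strand): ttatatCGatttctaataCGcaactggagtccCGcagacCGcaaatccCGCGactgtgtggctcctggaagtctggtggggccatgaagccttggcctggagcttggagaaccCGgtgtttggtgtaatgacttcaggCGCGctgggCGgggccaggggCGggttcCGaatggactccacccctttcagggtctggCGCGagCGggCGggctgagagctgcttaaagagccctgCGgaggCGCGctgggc

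Aldosterone, a mineralocorticoid that also binds the glucocorticoid receptor, changed 1 of the 88 genes in astrocytes, Kcnk6 (1.14%, against 0.788% of all named genes, 0.632% in that direction). Kcnk6 read 11.32, 11.61, 11.11 and 10.79. The lowest of these arrays was above the highest vehicle array of 10.70, a separation that 5% of all named genes showed, and the rise was 0.85 ± 0.15 (adjusted p = 2.38e-04), or 1.80-fold. Its second probe rose by 0.50 (adjusted p = 0.00616). By the methods' t-test the change did not pass (adjusted p = 0.480).

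Kcnk1 read 13.01, 13.09, 12.95 and 12.88 with aldosterone. Its lowest array lay just under the highest vehicle array of 12.89, and the difference of 0.32 ± 0.09 did not pass (adjusted p = 0.0755), but it did with a replicate block (adjusted p = 0.00818). Kcnt1 (0.29 ± 0.09, adjusted p = 0.121), Kcna6 (-0.33 ± 0.13, adjusted p = 0.319) and Kcnk5 (-0.18 ± 0.10, adjusted p = 0.553) did not pass, and Kcna2 differed by 0.04 ± 0.10.

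Progesterone changed none of the 88 genes in astrocytes by limma without the replicate block (0.0846% of all named genes passed). An unadjusted p under 0.05 was found for 6 of the 88 (6.82%), where a share of about 0.05 would be expected with no change. Kcnk6 read 11.12, 11.15, 10.84 and 10.63, so that 1 array overlapped the vehicle group, and its difference of 0.57 ± 0.15 did not pass (adjusted p = 0.157). With a replicate block it passed (0.57 ± 0.09, adjusted p = 1.90e-04). The other 5 genes changed by dexamethasone differed from vehicle by -0.11 for Kcna6 to 0.13 for Kcna2.

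With dihydrotestosterone and with estradiol no gene of the array passed in astrocytes. An unadjusted p under 0.05 was found for 4 of the 88 genes (4.55%) with each, about the share expected with no change. Kcnk6 read 10.76, 10.72, 10.21 and 10.48 with dihydrotestosterone and 10.78, 10.59, 10.27 and 10.19 with estradiol. Both groups lay within or just above the range of vehicle, with differences of 0.18 (95% confidence interval -0.11 to 0.47) and 0.10 (-0.20 to 0.39). The largest differences of any channel gene with these steroids were those of Kcnk2, -0.39 and -0.29, which did not pass.

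The 4 steroids given at 200 nM were also compared with one another in astrocytes, in 6 pairs, each adjusted over all probes. Dexamethasone, given at 100 nM, was left out of these comparisons. Without the replicate block, Kcnk6 alone of the 88 genes passed, with aldosterone above estradiol by 0.75 ± 0.15 (adjusted p = 0.00207; 0.454% of all named genes were higher and 0.561% differed). Aldosterone exceeded dihydrotestosterone by 0.67 ± 0.15, just short of the threshold (adjusted p = 0.0102; 0.57% of all named genes passed), and progesterone by 0.27 (95% confidence interval -0.02 to 0.57; 0.245% passed). Progesterone exceeded dihydrotestosterone by 0.39 (0.10 to 0.69) and estradiol by 0.48 (0.18 to 0.77), neither past the threshold after adjustment (0.0445% and 0.0312% of all named genes passed). The difference between dihydrotestosterone and estradiol was 0.09 (-0.21 to 0.38). With a replicate block 5 differences passed, and the share of all named genes that did so was not computed. Kcnk6 passed for aldosterone against dihydrotestosterone (adjusted p = 1.31e-06), aldosterone against estradiol (adjusted p = 5.82e-08) and progesterone against estradiol (adjusted p = 0.00696), while Kcnt1 and Kcns1 passed for aldosterone against estradiol (adjusted p = 0.00805 and 0.0077). The call for aldosterone over estradiol was lost without aldosterone array 1 or 2 or estradiol array 3 or 4 (adjusted p of 0.0158 to 0.0419), and under the methods' t-test or a fit of astrocytes alone (adjusted p = 0.683 and 0.0362), and with the mean of its 4 probes (0.149). At FDR 0.05 Kcnk6 passed for aldosterone against dihydrotestosterone (0.797% of all named genes did), and Kcnk6, Kcnt1 (0.37) and Kcns1 (-0.48), a silent modifier subunit, passed for aldosterone against estradiol (0.806%).

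**Figure D4:**
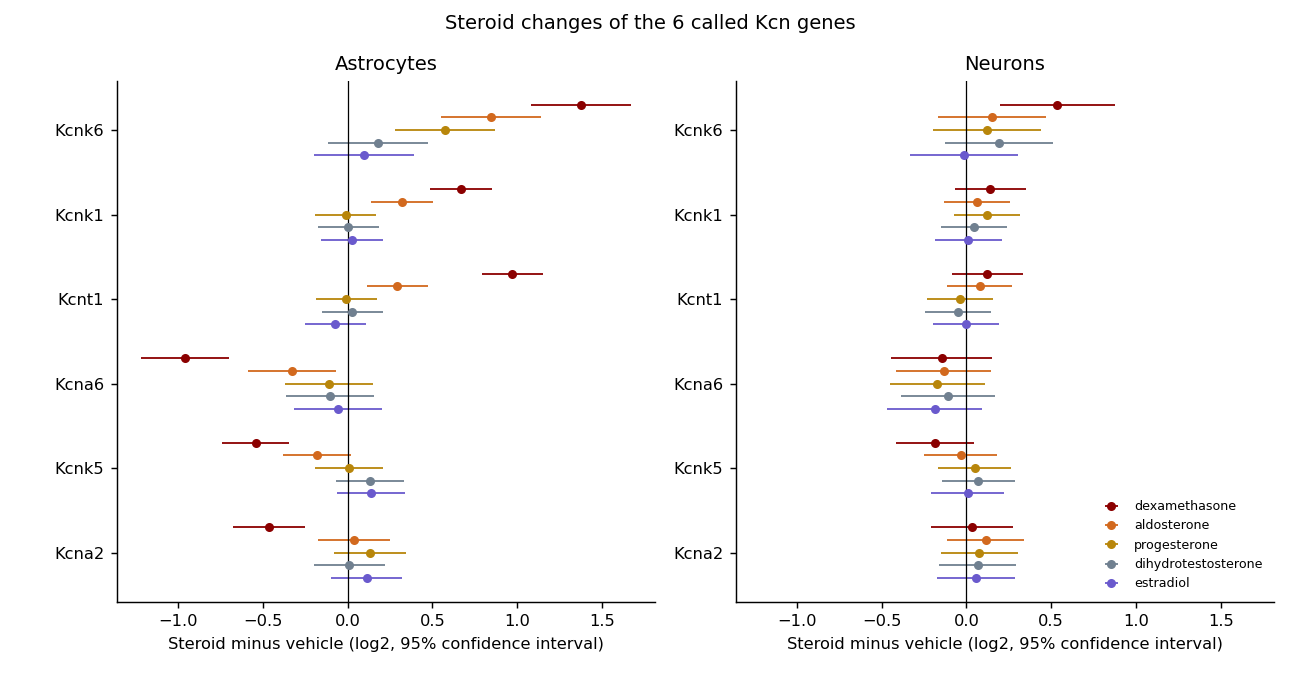
Change against vehicle (horizontal axis, log2, with 95% confidence intervals of limma) of the same 6 genes with each of the 5 steroids, in astrocytes (left) and neurons (right). In astrocytes the dexamethasone intervals exclude 0 for all 6 genes and those of aldosterone for Kcnk6, Kcnk1, Kcnt1 and Kcna6, that of progesterone for Kcnk6 alone (0.28 to 0.87), and in neurons the interval of Kcnk6 with dexamethasone (0.20 to 0.88) excludes 0 without adjustment.

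In neurons no steroid changed any of the 88 genes at FDR 0.01 by limma without the replicate block, and none passed by the methods' t-test. The share of all named genes that passed under the latter method was not computed, so that count has no background. With the replicate block Kcnk6 passed with dexamethasone, as given below. Of the 88 genes, 6 (6.82%) had an unadjusted p under 0.05 with dexamethasone and 4 (4.55%) with aldosterone. The numbers were 5 (5.68%) with progesterone, 3 (3.41%) with dihydrotestosterone and 2 (2.27%) with estradiol. With no change in any gene, a share of about 0.05 would be expected. Over all named genes 0.192% passed with dexamethasone and 0.00445% with aldosterone. Among the 28 channel genes above a level of 8 in vehicle neurons the changes with dexamethasone ran from -0.42 for Kcnip3 to 0.14 for Kcnh3.

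The largest difference in neurons was again that of Kcnk6. It read 7.63, 7.47 and 7.48 with vehicle and 8.15, 7.97 and 8.07 with dexamethasone, and the arrays left out read 8.24 and 7.63 in the same order. The 3 treated arrays were above the 3 vehicle arrays, as holds in either direction for 8.19% of all named genes, and the difference was 0.54 ± 0.17 (adjusted p = 0.617). With a replicate block it passed (0.54 ± 0.11, adjusted p = 0.00319). Over the other settings run for this gene, which did not include leaving out single arrays, the adjusted p ran from 0.0190, in a fit of neurons alone, to 1.00, for the mean of all its probes. With all 48 arrays the difference was 0.25, and its second probe differed by 0.17. The neuron cultures also held astrocyte markers, with a mean of 11.56 to 11.64 with vehicle and 11.60 to 11.72 with dexamethasone, and their part in the difference was not tested.

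The dexamethasone change differed between astrocytes and neurons for 1 of the 88 genes, Kcnt1 (1.14%, against 1.43% of all named genes, 0.913% with a higher change in astrocytes). It rose by 0.97 in astrocytes, while in neurons it read 8.44, 8.69 and 8.53 with vehicle and 8.75, 8.51 and 8.77 with dexamethasone (0.12 ± 0.10), and the difference of the changes was 0.85 ± 0.14 (adjusted p = 3.56e-05). The differences for Kcnk6 (0.84 ± 0.22, adjusted p = 0.0365), Kcnk1 (0.53 ± 0.14, adjusted p = 0.0284) and Kcna6 (-0.81 ± 0.20, adjusted p = 0.0144) did not pass, but did with a replicate block (adjusted p = 3.48e-05, 0.00211 and 9.58e-05). The second brightest probes of Kcnk6 and Kcna6 passed without the block, with differences of 1.01 (adjusted p = 4.05e-05) and -1.001 (adjusted p = 8.96e-06). At FDR 0.05 Kcnt1, Kcna6, Kcnk1 and Kcnk6 passed on their brightest probes (2.08% of all named genes did). Those for Kcnk5 and Kcna2 were -0.36 ± 0.15 and -0.50 ± 0.16 (adjusted p = 0.454 and 0.141). The drug effect over the 5 steroids and both cell types passed for 5 of the 88 genes, Kcnt1, Kcnk6, Kcnk1, Kcnk5 and Kcna6 (5.68%, against 2.49%), and with the block for Kcnn2 as well (adjusted p = 5.09e-04).

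Genes whose products work with these channels were listed apart, and 21 of 27 were measured. In vehicle cultures 6 were higher in astrocytes and 10 lower, where 21.7% and 19.3% of all named genes were. The auxiliary subunits of Kv4 channels Dpp10 and Dpp6 were lower by -4.42 ± 0.10 and -4.19 ± 0.13, next to -4.38 for Kcnd2. The cation channels Hcn3 and Hcn2 were lower by -3.50 ± 0.14 and -3.06 ± 0.12, and Cntnap2, which clusters Kv1 channels along axons, by -2.83 ± 0.11. The water channel Aqp4 and the sodium pump subunit Atp1b2 were higher in astrocytes, by 3.95 ± 0.11 and 1.79 ± 0.12. Aqp4 is also one of the astrocyte markers used above. Of the other sodium pump subunits measured, Atp1b3 was higher in astrocytes (0.86 ± 0.11) and Atp1b1 lower (-0.89 ± 0.15). None of the 21 passed FDR 0.01 with any steroid in either cell type.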

How the data were processed

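Levels were the log2 intensities of 46174 probes as deposited by the authors, whose methods give background subtraction, quantile normalization and log2 transformation of Illumina bead array signals. The deposited non-normalized log2 table served only for a check of identity: by its values, 1 of the 48 columns matched the sample its identifier names best. Matched by value instead, each of the 8 chips held 1 cell type, 1 replicate number and all 6 treatments, so the chip in the labels is not taken as the real one, and blocking on the replicate number is also blocking on the matched chip. Probes were named through the supplied platform annotation. The 12 group means were fitted to 46 arrays with limma 3.58.1 in R 4.3.3 (34 residual and 11.4 prior degrees of freedom), with Benjamini-Hochberg adjustment over all probes within a comparison and a threshold of FDR 0.01. An SE or interval is that of the moderated fit. Tables were made with Python 3.11.15 and pandas 2.3.3. Array signal over background limits the precision of dim probes; no count depth applies.

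Members, gene lists and the rule for named genes were chosen with earlier results of these data known. The rule names the genes past the threshold with a steroid, the 8 highest per cell type, the 10 largest differences each way between cell types, 14 fixed channels and genes whose probes disagree. Replicate numbers pair the arrays: deviations from the group means correlated over 0.1 in all 60 same-numbered pairs of astrocyte arrays (0.115 to 0.325) and all 51 of neuron arrays (0.130 to 0.564), so blocking on the number, nested in cell type, was an alternative. Others were all 48 arrays, the 2 left-out arrays exchanged, the chip in the labels as a random block, the replicate number within cell type as a random block (chosen after the data were seen), quantile normalization within cell types, a median shift, leaving out probes with a mean under 7.5, separate fits, the methods' t-test, the mean of all probes of a gene, FDR 0.05 and leaving out each array in turn.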

Additional observations from a re-analysis of the deposited data

Results flagged for a closer look

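In astrocytes the change of Kcnt1 with dexamethasone exceeded that in neurons by 0.847 on the log2 scale, by the test of the difference itself. Over 94 groups of 4 arrays checked for single distant arrays, 3 had a highest or lowest array whose gap to the next took up more of the group's range than Dixon's critical value, and chance alone flags about 1 in 20 groups. Kcnk6 read 8.06 on neuron dihydrotestosterone array 2 and 7.58 to 7.65 on the others of that group. On the same array the mean of the 8 microglial markers was 9.25 against 8.42 to 8.58, and that of the 5 mural cell markers 8.15 against 7.56 to 7.60; their part in the level of Kcnk6 was not tested. Kcnk1 read 10.9 on neuron estradiol array 2 and 10.99 to 11 on the others. Kcnj9, a G protein-coupled inward rectifier, read 6.79 on vehicle astrocyte array 1 and 6.94 to 6.97 on the others.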

How the results depend on the processing

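No result reversed under any alternative. Counts of channel genes that moved by over 1.5 times are given here, and the cause was not tested unless the alternative itself shows it. The difference of the dexamethasone change between cell types, 1 gene, became 4 at FDR 0.05, with all 48 arrays, with the replicate block and with the mean of all probes, 3 with the neuron arrays exchanged, and 2 with quantile normalization within cell types or without dim probes. The 200 nM comparisons, 1 gene, became 5 with the replicate block, 4 at FDR 0.05, 3 with quantile normalization, 2 with the arrays exchanged, a median shift or without dim probes, and 0 with separate fits or the methods' t-test. Aldosterone in astrocytes, 1 gene, became 2 with the block or the mean of all probes and 0 with the methods' t-test, which also took dexamethasone in astrocytes from 6 to 0. With the block, progesterone in astrocytes and dexamethasone in neurons went from 0 to 1 each, in both cases Kcnk6. Dexamethasone in neurons also went to 1 with the mean of all probes, by a gene other than Kcnk6. The block changed no other count by that much. Shares of all named genes were computed for the main fit alone, so counts under another fit or test have no background. With the number within cell type as a random block, chosen after seeing the data, the counts were 4 for the difference of dexamethasone changes, 4 for the 200 nM comparisons and 1 for progesterone in astrocytes. A level of 9 in place of 8 left 9 genes in astrocytes and 18 in neurons. Leaving out 1 array at a time gave 5 to 7 genes for dexamethasone in astrocytes, 43 to 44 between cell types, 1 to 2 for the difference of dexamethasone changes, 4 to 6 for the drug effect, 0 to 2 for the 200 nM comparisons and 1 for aldosterone. The 2 genes in the difference arose without vehicle astrocyte array 1 or 3, dexamethasone astrocyte array 3 or dexamethasone neuron array 4. The 200 nM count was 0 without aldosterone array 1 or 2 or estradiol array 3 and 2 without aldosterone array 4, dihydrotestosterone array 1, estradiol array 1 or progesterone array 2 or 4. Of 88 genes 34 stayed after dim probes were left out, so small changes of the others are not well measured here.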
